A study of Mus musculus with 12 samples.

Results

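The regions described here were the stretches of enrichment that fell into 5 windows of the mouse genome (mm10 build) where families of nearly identical genes lie side by side. The windows were chr8:19000001-21000000, chr1:85000001-86000000, chr5:14000001-16000000, chr7:59000001-60000000 and chr7:15000001-16000000, and a region was a member when its summit lay inside one of them. In all, 347 of the 9381 regions in the 4 lists were members. The windows had been picked because regions of these same lists stood densely in them, so the number of members is a description of the choice and was not tested. The regions came from chromatin immunoprecipitation sequencing of the transcription factor FOXP3 and of Ku70, the DNA repair protein encoded by Xrcc6, in CD4+ T cells sorted from mouse spleen and lymph nodes. Regulatory T cells (Tregs) were CD4+CD25+YFP+ and conventional T cells (Tconv) were CD4+CD25-YFP-. For Ku70, both cell types were taken from Foxp3 Yfp-Cre mice, labelled as wild type. For FOXP3, Tregs came from wild-type (WT) mice and from mice with an Xrcc6 knockout (KO), a conditional deletion carried out by a Cre recombinase that is driven by Foxp3 and therefore acts in Foxp3-expressing cells. All mice carried the Foxp3 Yfp-Cre allele on a C57BL/6J background, and their age was not given for this experiment in the sources used here. Each of the 4 lists was called on 2 pooled replicates against 1 input, so there was no spread between replicates, and no difference between lists could be tested. All intervals are 95% Wilson intervals and cover counting error only. Sequencing depth was not analysed here.

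Tandem gene families arise by repeated duplication, and their copies often keep almost the same sequence over long stretches. A short read from such a stretch fits several places equally well, and an aligner has to choose among them. Defensins are small antimicrobial peptides, Sp100, Sp110 and Sp140 are nuclear body proteins with interferon-responsive genes, Speer genes are expressed in the testis, Obox genes encode homeobox proteins of oocytes and early embryos, and the SNORD115 and SNORD116 small nucleolar RNAs are processed from a long imprinted transcript, Snhg14, that is best known from neurons.

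The sequences below show examples of the members, read from the RefSeq copy of the mm10 (GRCm38) reference. In the first set, capitals mark the 31 bases around the summit. The chr5 regions are shown because they had the highest −log10 p of all members, the chr8 region because it had the highest −log10 p of its window, and the Obox region because it had the highest fold of all members.

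Treg Ku70, chr5:15634203-15634382, plus strand: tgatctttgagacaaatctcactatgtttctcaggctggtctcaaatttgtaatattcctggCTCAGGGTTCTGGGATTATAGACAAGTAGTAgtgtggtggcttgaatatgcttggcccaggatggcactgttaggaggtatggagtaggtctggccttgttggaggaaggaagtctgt
Treg Ku70, chr5:15053598-15053744, plus strand: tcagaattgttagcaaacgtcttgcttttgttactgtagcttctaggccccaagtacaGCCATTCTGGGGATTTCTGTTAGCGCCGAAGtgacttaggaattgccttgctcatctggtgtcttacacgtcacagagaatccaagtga
Tconv Ku70, chr5:14933863-14934002, plus strand: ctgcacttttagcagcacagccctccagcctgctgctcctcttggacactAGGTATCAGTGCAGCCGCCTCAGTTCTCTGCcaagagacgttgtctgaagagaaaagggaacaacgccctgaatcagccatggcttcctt
Treg Ku70, chr8:20059968-20060173, plus strand: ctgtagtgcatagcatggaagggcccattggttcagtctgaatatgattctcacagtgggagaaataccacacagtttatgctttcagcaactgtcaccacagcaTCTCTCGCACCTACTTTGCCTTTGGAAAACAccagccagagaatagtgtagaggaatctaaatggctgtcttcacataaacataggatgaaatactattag
Tconv Ku70, chr7:15813392-15813550, plus strand: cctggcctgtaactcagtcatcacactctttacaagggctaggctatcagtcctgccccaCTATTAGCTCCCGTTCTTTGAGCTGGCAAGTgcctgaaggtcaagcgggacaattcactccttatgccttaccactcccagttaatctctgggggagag

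The second set shows pairs of regions from different lists and different positions that carried nearly the same sequence. Capitals mark the longest run of identical bases that the members of a pair shared, 113 bases in the snoRNA pair and 155 bases in the chr1 pair, of which the Treg Ku70 region is written on the minus strand.

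WT FOXP3, chr7:59798425-59798674, plus strand: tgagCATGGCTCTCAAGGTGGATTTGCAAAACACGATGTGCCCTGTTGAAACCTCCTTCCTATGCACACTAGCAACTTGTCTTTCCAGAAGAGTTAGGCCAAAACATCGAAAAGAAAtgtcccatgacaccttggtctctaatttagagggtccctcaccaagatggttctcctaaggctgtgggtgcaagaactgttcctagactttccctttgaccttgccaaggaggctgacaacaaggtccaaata
Tconv Ku70, chr7:59860715-59860942, plus strand: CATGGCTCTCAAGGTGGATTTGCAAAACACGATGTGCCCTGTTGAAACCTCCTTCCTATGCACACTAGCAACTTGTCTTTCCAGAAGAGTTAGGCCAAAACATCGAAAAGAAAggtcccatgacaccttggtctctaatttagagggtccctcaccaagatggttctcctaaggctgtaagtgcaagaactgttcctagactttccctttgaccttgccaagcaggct
KO FOXP3, chr1:85026416-85026586, plus strand: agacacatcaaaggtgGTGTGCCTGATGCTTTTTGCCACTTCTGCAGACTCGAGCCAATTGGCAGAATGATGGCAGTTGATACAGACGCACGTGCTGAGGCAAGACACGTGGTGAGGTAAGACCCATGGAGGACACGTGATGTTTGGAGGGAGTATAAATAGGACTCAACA
Treg Ku70, chr1:85215081-85215312, minus strand: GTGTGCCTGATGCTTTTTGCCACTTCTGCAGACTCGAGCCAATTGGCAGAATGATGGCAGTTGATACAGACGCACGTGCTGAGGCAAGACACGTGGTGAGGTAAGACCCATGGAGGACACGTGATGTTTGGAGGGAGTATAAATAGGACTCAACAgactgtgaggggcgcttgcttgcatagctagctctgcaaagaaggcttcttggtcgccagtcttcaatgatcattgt

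The members made up a different share of each list. The WT FOXP3 list had 57 members among 1751 regions, which is 3.26% (interval 2.52 to 4.19%). The KO FOXP3 list had 21 members among 544 regions, or 3.86% (interval 2.54 to 5.83%). Of the 5295 Treg Ku70 regions 144 were members, a share of 2.72% (interval 2.31 to 3.19%). The Tconv Ku70 list placed 125 of its 1791 regions in the windows, or 6.98% (interval 5.89 to 8.25%). Since the windows were picked on these same positions, the intervals give the counting error of each share and no test between lists. The 5 windows hold 6.11 Mb of assembled sequence outside gaps. Per Mb they held 23.6 Ku70 regions of Tregs and 20.5 of Tconv, and 9.34 FOXP3 regions of WT and 3.44 of KO Tregs, against 1.97, 0.644, 0.647 and 0.197 per Mb in the same order over the assembled nuclear chromosomes. When each list was reduced to its 544 strongest regions by −log10 p, the shares became 11.2% (interval 8.83 to 14.1%) for Ku70 in Tconv, 7.54% (5.6 to 10.1%) for Ku70 in Tregs, 5.15% (3.59 to 7.34%) for FOXP3 in WT and 3.86% for FOXP3 in KO Tregs. The Treg Ku70 list thereby moved from the lowest share to the second highest. Among regions with a −log10 p of at least 2, the shares were 7.96% (interval 6.34 to 9.93%) for Ku70 in Tconv, 3.73% (2.99 to 4.65%) for Ku70 in Tregs, 7.22% (4.98 to 10.4%) for FOXP3 in WT and 4.30% (2.20 to 8.26%) for FOXP3 in KO Tregs. The order of the lists thus depended on which regions were counted, and at this limit the Tconv Ku70 and WT FOXP3 shares were close.

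**Figure D1:**
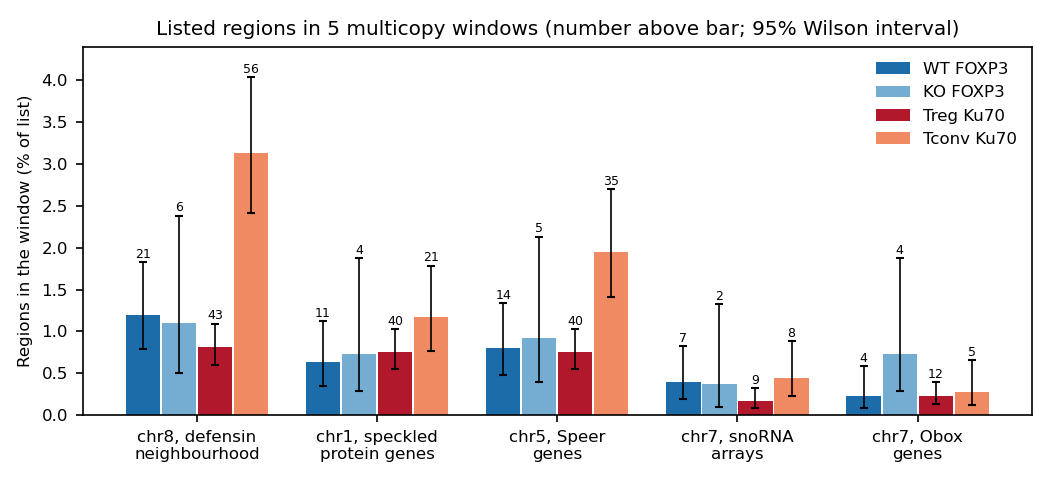
Share of each list (in %) that lay in each of the 5 windows, with bars for the 4 lists, the number of regions above each bar and 95% Wilson intervals as error bars. The Tconv Ku70 bar is the tallest in every window but Obox, with the widest distance to the other lists in the chr8 window (56 regions) and the chr5 window (35 regions), and in the chr7 windows no list had more than 12 regions.

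By window, the chr8 stretch held 126 members, the chr5 stretch 94, the chr1 stretch 76, the snoRNA arrays 26 and the Obox stretch 25. The chr8 window held 3.13% of the Tconv Ku70 list (interval 2.42 to 4.04%) and 0.812% of the Treg Ku70 list (interval 0.604 to 1.09%). In the chr5 window the Tconv Ku70 share was 1.95% (interval 1.41 to 2.71%) and the Treg Ku70 share 0.755% (interval 0.555 to 1.03%). In the chr1 window these shares were 1.17% (interval 0.768 to 1.79%) and 0.755% (interval 0.555 to 1.03%).

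**Figure D2:**
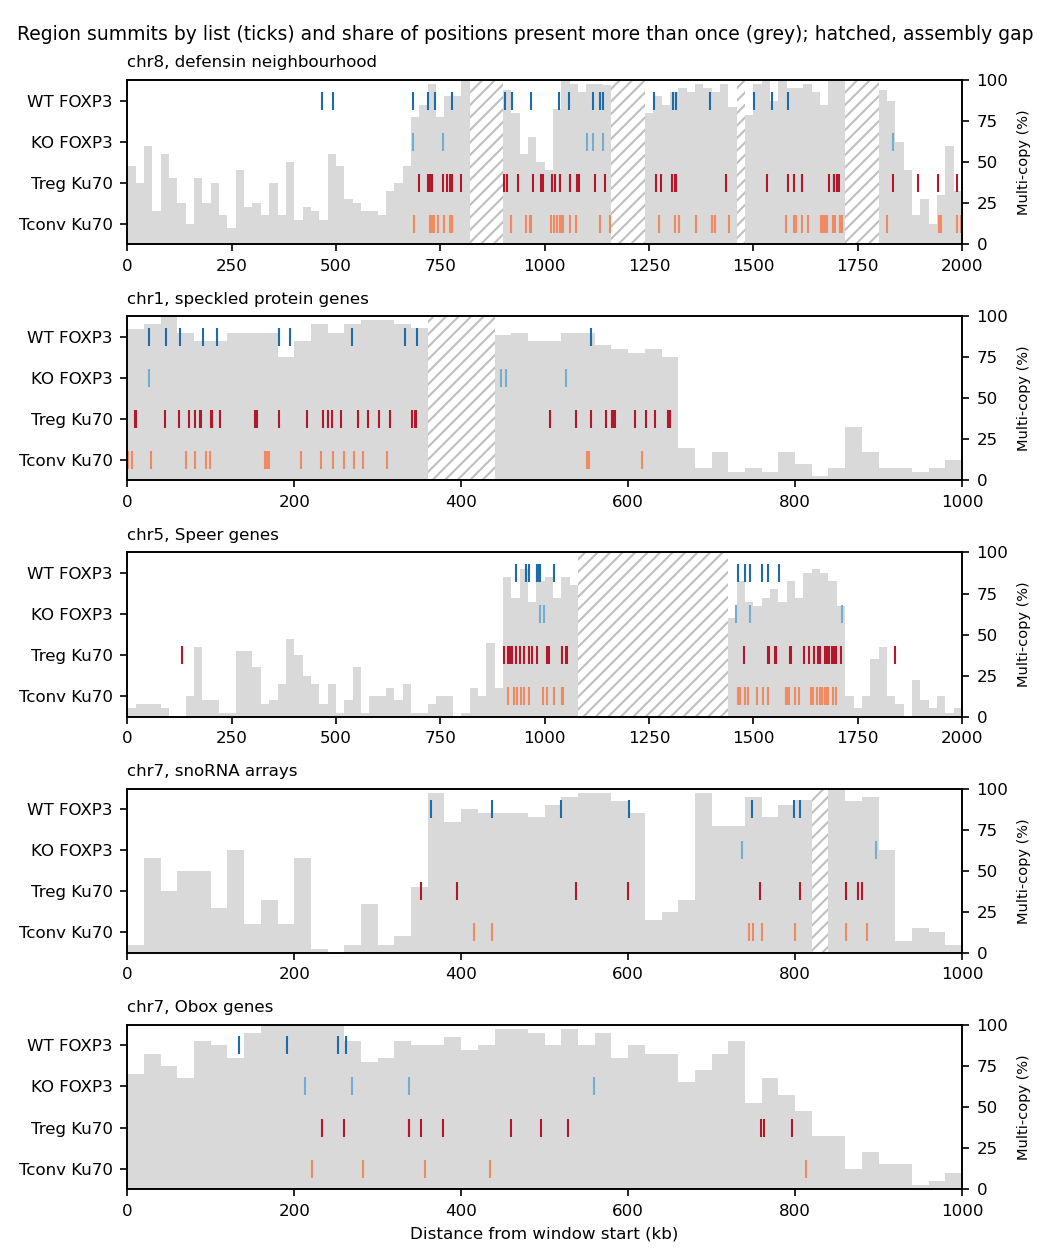
Position of every member summit (ticks, 1 row per list) along the 5 windows, as distance from the window start in kb, over the share of evenly spaced positions whose 31 bases occur more than once in the genome (grey bars of 20 kb, right axis in %). Hatched bars are assembly gaps. The ticks crowd on the grey blocks, while the 349.3 kb at the end of the chr1 window hold no member and the chr5 window before position 14903611 holds 1. With 3.46 regions per Mb in all lists together over the assembled nuclear chromosomes, these low counts are not read as a result.

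Most members were weak by the caller's own measures. The median fold enrichment of the members was 1.96 for Ku70 in Tregs, 1.91 for Ku70 in Tconv, 1.93 for FOXP3 in WT and 2.03 for FOXP3 in KO Tregs, and over all regions of these lists on assembled chromosomes it was 2.04, 2.12, 2.04 and 2.19. The median −log10 p of the members was 2.03, 2.15, 1.86 and 1.77 in the same order, and over the whole lists 1.47, 1.95, 1.78 and 1.40. Fold was thus lower and −log10 p higher among members than over the list in all 4 lists. The same pattern of fold held among regions with −log10 p of at least 2 in 3 lists, with medians of 2.21 against 2.44 for WT FOXP3, 2.21 against 2.41 for Treg Ku70 and 2.20 against 2.46 for Tconv Ku70, while the 8 KO FOXP3 members had a median of 2.59 against 2.48. A q-value below 0.05 was reached by 2 of the 144 Treg Ku70 members, beside 0.264% of that whole list. No member of the other lists reached it, where the whole lists had 0.171% for WT FOXP3, 0.919% for KO FOXP3 and 0.168% for Tconv Ku70. The q-value was below 1 in 5 of the 347 members, all of them Ku70 regions. Over all lists this held for 39 of the 9196 regions on assembled chromosomes. Among these were 5 of 1720 WT FOXP3 and 8 of 532 KO FOXP3 regions. With 0 of 57 WT and 0 of 21 KO FOXP3 members, the intervals reached 6.31% and 15.5%. The lack of FOXP3 members with a q-value below 1 is therefore not read as a result.

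**Figure D3:**
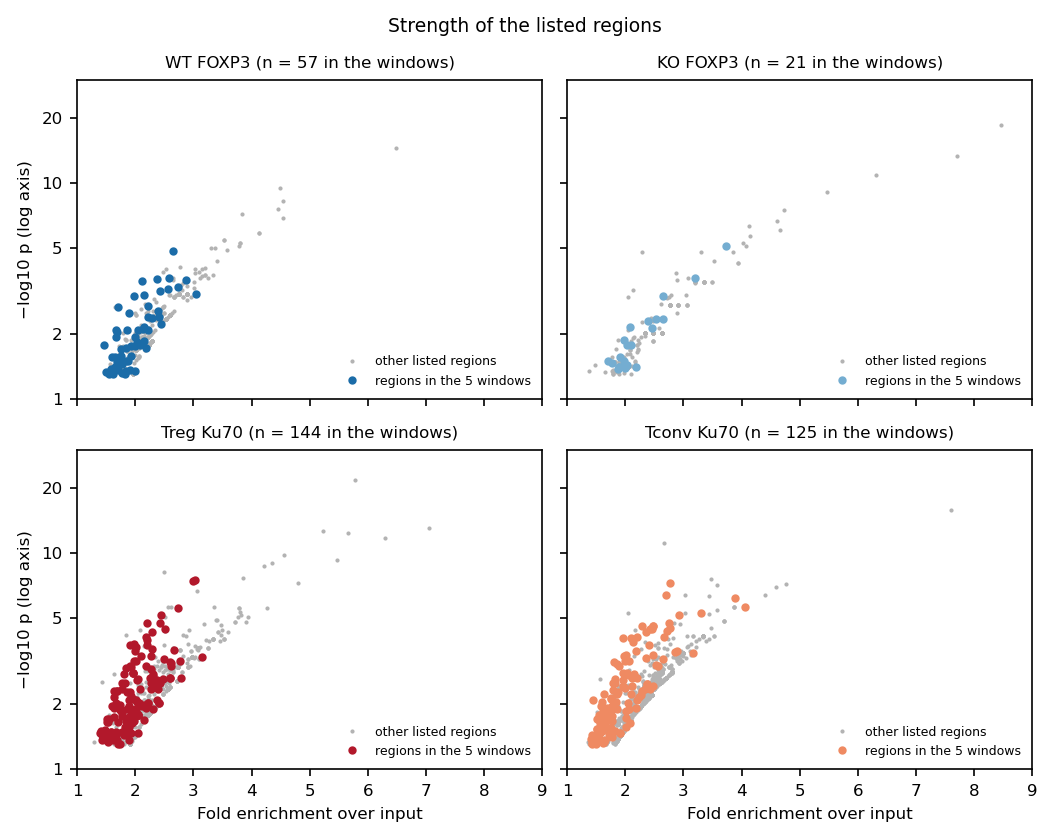
Fold enrichment (x axis) against −log10 p (y axis, log scale) of every listed region, 1 panel per list, with members in colour and the other regions in grey. The members lie on the left side of the grey cloud, between 1.39-fold and 4.06-fold, and none reaches the strongest grey points.

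The chr8 window lies in a stretch of defensin genes, but few members lay at one. Of the 19 annotated defensin genes and pseudogenes in the window, 3 had a summit inside or within 3 kb, from 4 of the 126 members. These 3 genes are 1.0 to 5.1 kb long. The part of the window that defensin genes take up was not measured, so the low count is no result about the members. Defb7, a beta-defensin gene, had a WT FOXP3 region nearby (3.04-fold, −log10 p 3.07), whose summit lay inside the pseudogene Rpl19-ps11. Defb33 had a Treg Ku70 region inside it (1.85-fold, −log10 p 1.47). AY761185, annotated as a defensin-related peptide, had a Treg Ku70 region (3.15-fold, −log10 p 3.31) and a Tconv Ku70 region (1.83-fold, −log10 p 1.5) within 3 kb, at chr8:20942443-20942609 and chr8:20945039-20945185, which did not overlap. The stretch from the first to the last defensin gene held 121 of the 126 members, and other duplicated genes lie within it. Of the 126 members, 26 lay inside or within 3 kb of 6 copies of a gene whose RefSeq product is an ankyrin repeat protein, and the transcripts of 5 of them matched that of the other copy, Gm21119, at 98.99 to 99.60% identity. These 26 members were 13 Tconv Ku70, 7 Treg Ku70, 4 WT FOXP3 and 2 KO FOXP3 regions. The copy 4930467E23Rik had 8 regions, Gm20778 and Gm31371 had 6 each, and Gm21119 had 3. At the pseudogene 6820431F20Rik and 4 relatives, whose transcripts matched it at 92.47 to 95.47% identity, lay 18 members. The part of the window that the ankyrin repeat and 6820431F20Rik copies take up was not measured either. The counts of 26 and 18 are therefore no result about the members. The long noncoding RNA Gm26804 had 13 regions, 7 of them Tconv Ku70, and 63 of the 126 members had no annotated gene within 3 kb.

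The leading regions of the chr8 window were of modest strength. The Treg Ku70 leader at chr8:20059968-20060173 had 2.44-fold enrichment and a −log10 p of 5.17, and the 31 bases at its summit, shown above, occurred 4 times in the genome. The Tconv Ku70 leader, inside Gm21119 at chr8:20631245-20631564, had 2.29-fold enrichment and a −log10 p of 4.62, with 95.9% of its bases masked as repeats. The WT FOXP3 leader at chr8:20261108-20261338 (2.56-fold, −log10 p 3.24) was the only member that overlapped a promoter of the RefSeq promoter table, that of Gm40468, out of 70 promoters in the 5 windows. The KO FOXP3 leader at chr8:20140520-20140659, inside the pseudogene Gm21811, had 2.08-fold enrichment and a −log10 p of 2.15.

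The chr1 window holds genes of the speckled protein family and many copies of parts of them. Of the 76 members, 70 lay inside or within 3 kb of Sp100, Sp110, Sp140 or 16 annotated genes, pseudogenes and noncoding RNAs that resemble them at 95.91% identity or more over at least 300 bases of transcript. They comprised 38 Treg Ku70, 21 Tconv Ku70, 9 WT FOXP3 and 2 KO FOXP3 regions. The part of the window that these genes take up was not measured, so this count is no result about the members. C130026I21Rik, a gene of 277.9 kb that overlaps several of the others, had 44 regions, and A530032D15Rik, of 26.8 kb, had 12. Sp140, of 44.7 kb, had 5 (4 Treg Ku70 and 1 Tconv Ku70), and Sp110 and Sp100 had 3 each, all from the Treg Ku70 list. None of the 11 WT and 4 KO FOXP3 members of the window lay at Sp100, Sp110 or Sp140. With so few FOXP3 members this absence is not read as a result. The last member summit lay at position 85650690, inside Sp100, and no member followed in the remaining 349.3 kb of the window. The lists together held 3.46 regions per Mb over the assembled nuclear chromosomes, so this absence is not read as a result. The last member, at chr1:85650549-85650789, was the leading Treg Ku70 region of the window (2.78-fold, −log10 p 3.16). The strongest chr1 region was from Tconv Ku70 at chr1:85167047-85167196, inside C130026I21Rik and the pseudogenes Gm2619 and Gm6264, with 3.88-fold enrichment, a −log10 p of 6.23 and a −log10 q of 0.16. The WT FOXP3 leader at chr1:85107315-85107482 had 2.57-fold enrichment and a −log10 p of 3.65, and the KO FOXP3 leader at chr1:85525930-85526093 had 2.64-fold enrichment and a −log10 p of 2.34.

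The chr5 window holds the Speer genes. Speer4e and 9 relatives with 93.11 to 98.21% identity to its transcript spanned the stretch that held 91 of the 94 members. The members stood in 2 clusters, with 37 between positions 14903611 and 15053671 and 55 between 15457904 and 15712026, separated by 404.2 kb without a member. Assembly gaps made up 19.75% of this window, and no region can be listed in a gap. The distance between the clusters is therefore not read as an absence of regions. Of the summits, 11 lay inside a Speer gene, 24 inside or within 3 kb and 52 inside or within 10 kb. The median distance from a summit to the nearest Speer gene start was 11.4 kb. The part of the window within these distances was not measured, so these values are no result about the members. Of the 24 within 3 kb, 9 were Treg Ku70, 9 Tconv Ku70, 5 WT FOXP3 and 1 KO FOXP3. The noncoding antisense gene Gm21847, of 140.2 kb, had 25 regions. Only 1 member lay outside the family near another coding gene, a Treg Ku70 region inside Sema3e, which encodes a semaphorin guidance protein (1.85-fold, −log10 p 1.47).

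The members with the highest −log10 p of all windows lay here, although their folds were below the highest of each of the other windows. The Treg Ku70 region at chr5:15634203-15634382, inside Gm21847, had 3.03-fold enrichment, a −log10 p of 7.56 and a −log10 q of 1.68. The Treg Ku70 region at chr5:15053598-15053744 had 2.99-fold enrichment, a −log10 p of 7.42 and a −log10 q of 1.57. These were the 2 members with a q-value below 0.05. The Tconv Ku70 region at chr5:14933863-14934002, inside Speer4e, had 2.76-fold enrichment, a −log10 p of 7.28 and a −log10 q of 1.00. Its sequence and that of the second Treg region, both printed above, had summits that occurred 2 times in the genome, and the summit of the first occurred 1 time. The WT FOXP3 leader at chr5:14931822-14931974, within 3 kb of Speer4e, had 2.64-fold enrichment and a −log10 p of 4.84, and the KO FOXP3 leader at chr5:15491036-15491199 had 3.19-fold enrichment and a −log10 p of 3.62.

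All 26 members of the chr7 snoRNA window lay inside Snhg14, the host transcript, and none lay within 3 kb of Ube3a, the imprinted ubiquitin ligase gene in the same window. The array of SNORD115 copies (132 in the RefSeq annotation, spaced by a median of 1871 bp) held 10 members, of which 4 were WT FOXP3, 4 Treg Ku70, 2 Tconv Ku70 and none KO FOXP3. The array of SNORD116 copies (69, spaced by a median of 2528.5 bp) held the other 16, of which 6 were Tconv Ku70, 5 Treg Ku70, 3 WT FOXP3 and 2 KO FOXP3. One summit lay inside a SNORD115 copy and none inside a SNORD116 copy. The annotated copies are about 0.1 kb long and take up a small part of each array, so few summits inside them is no result about the members. The median distance to the nearest copy was 632.5 bp in the SNORD115 array and 958 bp in the SNORD116 array. The leading regions were from Tconv Ku70 at chr7:59885986-59886134 (3.30-fold, −log10 p 5.31) and from KO FOXP3 at chr7:59896312-59896452 (3.74-fold, −log10 p 5.08). Those of Treg Ku70 at chr7:59758127-59758270 (2.31-fold, −log10 p 2.69) and WT FOXP3 at chr7:59805971-59806155 (2.41-fold, −log10 p 2.39) were lower on both measures.

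In the chr7 Obox window, 11 of the 25 members lay inside or within 3 kb of an Obox gene or pseudogene, and 21 within 10 kb, out of 36 annotated copies. From the first to the last, these copies span 0.833 Mb. The part of the window within these distances was not measured, so the counts are no result about the members. Obox1, annotated over 167.9 kb, had 5 regions (3 Treg Ku70, 1 KO FOXP3 and 1 Tconv Ku70), and Obox3, over 160.1 kb, had 3. Obox5 had 2 Treg Ku70 regions, one of them the leader of its list in the window (2.60-fold, −log10 p 2.64). The highest fold of all 347 members, 4.06 with a −log10 p of 5.62, belonged to a Tconv Ku70 region at chr7:15813392-15813550 that had no gene within 3 kb. The leaders of WT FOXP3 at chr7:15191428-15191623 (2.44-fold, −log10 p 2.23) and of KO FOXP3 at chr7:15268670-15268829 (2.53-fold, −log10 p 2.34) had no gene within 3 kb either.

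Most member summits stood on repeated sequence, as did most of the sequence around them. The 31 bases around the summit occurred more than once in the genome in 94.7% of the WT FOXP3 members, 85.7% of the KO FOXP3 members, 90.3% of the Treg Ku70 members and 90.4% of the Tconv Ku70 members. Over the whole lists the shares were 35.1%, 37.4%, 28.6% and 32.9%. The windows themselves are repeated, and 53.4% of positions taken every 500 bp in them were multi-copy by the same measure. Within the 20 kb bins that held a member, weighted by the number of members, 84.6% of positions were multi-copy, against 90.8% of the 347 member summits. With 51 bases these shares were 75.9% and 83.9%. In the Obox window the order turned at 51 bases, with 76.3% of positions and 72.0% of member summits. With 50 bases on each side of the summit base, the members' share was 70.0%, that of the positions in the same bins 57.7%, and that of the whole lists 17.8%. Masked repeats were less unequal, with at least 50% of bases masked in 40.3% of the members and 32.0% of all listed regions.

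**Figure D4:**
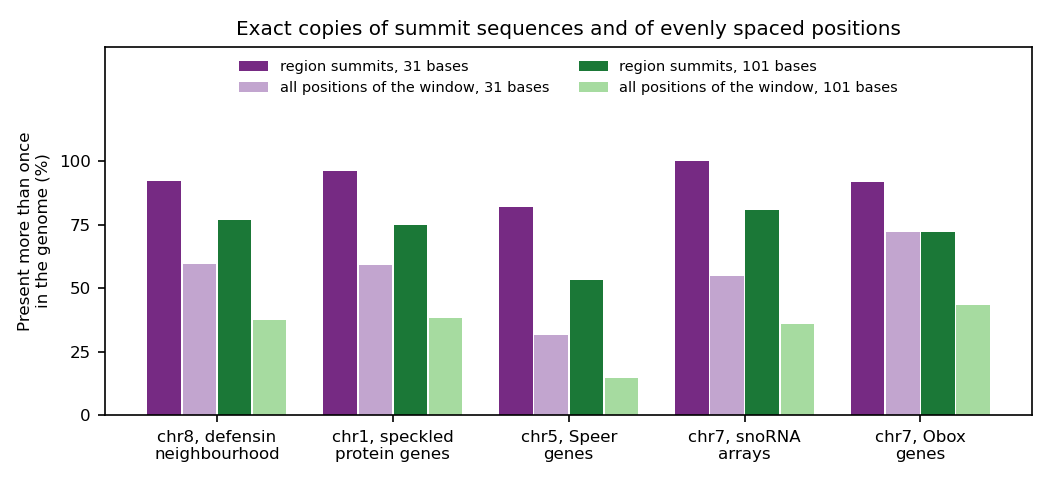
Share (in %) of member summits and of positions taken every 500 bp in each window whose sequence occurs more than once in the genome, for 31 bases (purple) and for 50 bases on each side of the central base (green). In each window the summits exceed the positions of the whole window, for 31 bases by the least in the Obox window (92.0% against 72.0%).

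The other copies of a summit in its own window were mostly not listed. For 243 members the longer sequence, with 50 bases on each side of the summit base, had at least 1 other exact copy, and for 170 of them all other copies lay in the same window. The 243 summits had 3275 other copies, of which 1896 lay on other chromosomes and 1113 within their own windows. Much of this total came from single summits. The sequence occurred 597 times for the Treg Ku70 region starting at chr5:15697370 and 481 times for the Tconv Ku70 region starting at chr5:15697387. For the Treg Ku70 region starting at chr7:59394682 it occurred 592 times. Of the 1113 copies, a region of the same list covered 26 (2.34%), and another region of any list covered 75 (6.74%). For the chr1 window, 160 of the 366 other copies lay on other chromosomes and 105 on unplaced contigs, both more than the 80 within the window. Near copies, taken as alignments with at least 90% identity over at least 80% of the region, to another listed region anywhere existed for 68 of the 347 members, or 19.6% (interval 15.8 to 24.1%), beside 1378 of the 9196 listed regions on assembled chromosomes. For 42 members the near copy was another member of the same window. Counting pairs in which either region was covered that far, there were 39 pairs, 0.5 to 1098.4 kb apart, and 21 of them joined different lists.

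The snoRNA window had 12 of these pairs among its 26 members, and the chr8 window 17 among 126. The WT FOXP3 region at chr7:59798425-59798674 (1.78-fold) and the Tconv Ku70 region at chr7:59860715-59860942 (2.64-fold), printed above, lay 62.3 kb apart and were 98.2% identical over 228 bases. The chr1 pair printed above, from KO FOXP3 (2.09-fold) and Treg Ku70 (2.18-fold), lay 188.7 kb apart, and the WT FOXP3 region that overlapped the first of them (2.73-fold) matched the Treg Ku70 region as well. In the chr8 window, 3 Tconv Ku70 regions starting at 20074326, 20668289 and 20708431 were identical to each other over at least 184 bases, with folds of 2.12, 1.96 and 1.54. Regions with the same sequence at different positions of 1 list thus had different folds.

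Regions of different lists overlapped in 31 places of the windows, involving 63 members. Overlap with another list was found for 21.1% of the WT FOXP3 members, 33.3% of the KO FOXP3 members, 17.4% of the Treg Ku70 members and 15.2% of the Tconv Ku70 members. Over the whole lists it was 4.74%, 11.4%, 1.89% and 4.63%. The windows were chosen on the positions of all 4 lists, so these shares are a description of the choice. The chr5 window had 13 of the 31 places, the chr8 window 11, the chr1 window 4, the snoRNA window 2 and the Obox window 1. In 16 places only the 2 Ku70 lists overlapped, in 5 WT FOXP3 and Treg Ku70, in 4 WT and KO FOXP3, in 3 KO FOXP3 and Treg Ku70 and in 2 WT FOXP3 and Tconv Ku70. One place was shared by 3 lists, around chr5:15533976-15534202 inside Gm21847, with 1.86-fold enrichment for WT FOXP3, 1.65-fold for Treg Ku70 and 2.76-fold for Tconv Ku70. No place was shared by all 4 lists, and none by KO FOXP3 and Tconv Ku70. Over the whole lists, 3.49% of KO FOXP3 regions overlapped a Tconv Ku70 region, and 1.23% the other way round. With 0 of 21 KO FOXP3 members the interval reached 15.5%, so this absence is not read as a result.

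**Figure D5:**
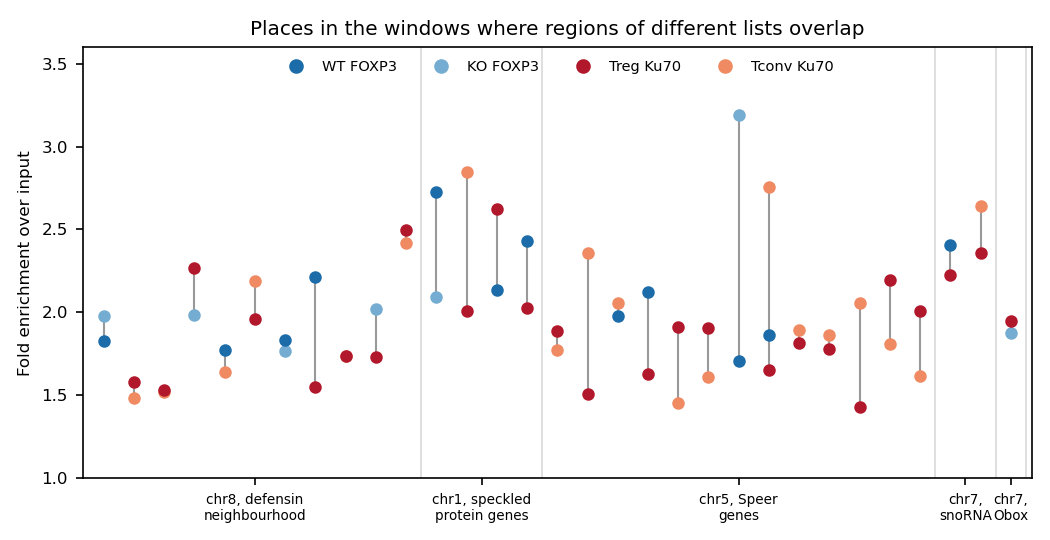
Fold enrichment (y axis) of the overlapping regions at the 31 shared places, ordered along the x axis by window and position, with a point per list joined by a line. The 2 Ku70 lists account for most pairs, and the widest gap is at a chr5 place with 3.19-fold enrichment for KO FOXP3 and 1.71-fold for WT FOXP3.

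Of the Ku70 members, 17 of 144 in Tregs (11.8%, interval 7.50 to 18.1%) overlapped a Tconv Ku70 region, and 17 of 125 in Tconv (13.6%, interval 8.67 to 20.7%) overlapped a Treg Ku70 region. Over the whole Ku70 lists these shares were 1.08% and 3.35%. Of the 16 places shared by the Ku70 lists alone, the fold was higher in Tregs at 9 and in Tconv at 7. In the chr5 window the fold was 1.51 in Tregs and 2.36 in Tconv at chr5:14949835-14950059, and 2.20 in Tregs and 1.81 in Tconv at chr5:15679079-15679361. In the chr8 window it was 2.5 in Tregs and 2.42 in Tconv at chr8:20987469-20987771. For FOXP3, 4 of 57 WT members (7.02%, interval 2.76 to 16.7%) overlapped a KO region, and 4 of 21 KO members (19%, interval 7.67 to 40%) overlapped a WT region. Over the whole FOXP3 lists these shares were 2.28% and 6.80%. The 4 places were at chr8:19685607-19685842 (1.83-fold in WT and 1.98-fold in KO), chr8:20115362-20115553 (1.83-fold and 1.77-fold), chr1:85026431-85026584 (2.73-fold and 2.09-fold) and chr5:15491020-15491197 (1.71-fold and 3.19-fold). Of these places the WT fold was higher at 2 and the KO fold at 2. In Tregs, 6 of the 57 WT FOXP3 members (10.5%, interval 4.91 to 21.1%) and 6 of the 144 Treg Ku70 members (4.17%, interval 1.92 to 8.79%) overlapped each other. Over these 2 whole lists the shares were 2.40% and 0.737%.

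The forkhead core TGTTTAC, the letters that FOXP3 and its relatives recognise, was sought in either orientation up to 50 bp from each summit. It was found at 1 of the 347 members, a Treg Ku70 region at Sp100, and at none of the 57 WT FOXP3 members (interval up to 6.31%) or the 21 KO FOXP3 members (interval up to 15.5%). The share was 0.288% over all members, 1.11% over all listed regions and 1.22% over the positions taken every 500 bp in the windows. Anywhere in the region the order turned, with the core in 12 members (3.46%) against 2.36% of all listed regions, so neither count is read as a difference.

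The nearest regions on either side of the window borders were as follows. Just inside the end of the chr8 window stood a Tconv Ku70 region (2.72-fold, −log10 p 4.35), and 0.2 kb outside it another (2.30-fold, −log10 p 2.25). At the start of the chr1 window a Tconv Ku70 region lay 1.3 kb inside (2.36-fold, −log10 p 2.48) and a Treg Ku70 region 12.3 kb outside (1.87-fold, −log10 p 1.33). Before the Obox window a Treg Ku70 region lay 20.6 kb outside (3.76-fold, −log10 p 5.08) and the first member 133.7 kb inside (1.84-fold, −log10 p 1.34). Beyond the end of the chr5 window a Treg Ku70 region lay 39.3 kb outside (2.41-fold, −log10 p 2.03) and the last member 160.6 kb inside (2.78-fold, −log10 p 2.64). At the other borders the nearest region outside was at least 64.3 kb away.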

How the data were processed

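The 12 samples covered FOXP3 in WT and KO Tregs and Ku70 in WT Tregs and Tconv cells, each of these 4 sets having 2 replicates and 1 input. According to the methods and the labels, the authors checked reads with FastQC, trimmed them with Trim Galore, mapped them to mm10 with Bowtie2 at its default setting, removed duplicates with Picard (GATK) and merged both replicates before calling regions with MACS2, with the input as control, no model of the shift and a p-value limit of 0.05. Versions are not given in the sources used here. Bowtie2 at its default reports 1 place for a read that fits several. The deposited lists hold a display score, which was not used, the fold enrichment as a ratio, the −log10 p-value and −log10 q-value, and the summit offset in bp. Groups follow the labels (Treg, Tconv, KO), although names inside the lists read iTreg, Teff and CKO. Depth was not analysed here.

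The 9544 rows were collapsed to 9381 regions by chromosome, start and end, keeping the row with the highest −log10 q, then −log10 p; 185 regions on unplaced contigs entered only the counts and overlaps. Members had their summit in 1 of 5 windows. Members, windows and gene lists were chosen with earlier results of these data known, and the families by sequence were defined after seeing the data. Genes were those of GENCODE M21 (55450) with a summit inside or within 3 kb. Family members had a transcript alignment of at least 90% identity over at least 300 bases to Gm21119, 6820431F20Rik, Speer4e, Sp100, Sp110 or Sp140; defensins and Obox genes were taken by symbol or RefSeq product and snoRNAs by RefSeq product. Regions named were the one with the highest −log10 p of each list in each window and those that overlapped another list; genes were up to 6 with the most summits per window and every gene of the named families, summarised where many. Others were named after their values were seen. Exact copies of 31 or 51 bases around the summit, or of 50 bases on each side of it, were counted on both strands of the GRCm38 primary assembly; the counting was tested on simulated sequence. Near copies were sought with blastn 2.17.0 among regions on assembled chromosomes. Scripts ran under Python 3.11.15 with matplotlib 3.10.9, networkx 3.6.1, scipy 1.17.1, pandas 2.3.3 and numpy 2.4.6. No test was run, since each set is 1 pooled list.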

Additional observations from a re-analysis of the deposited data

How the results depend on the processing

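No paired analysis was possible because each set was deposited as 1 list called on pooled replicates, and for the same reason no replicate could be left out. Counting every row, or any base inside a window, left all counts of members within 1.5 times. With a −log10 p of at least 2 the members numbered 76 for Ku70 in Tregs, 70 for Ku70 in Tconv, 26 for FOXP3 in WT and 8 for FOXP3 in KO Tregs. Their median folds were then 2.21, 2.20, 2.21 and 2.59 and their median −log10 p values 2.67, 3.03, 2.60 and 2.34, the latter higher by construction. With a −log10 q of at least 2 each of the 4 lists had 0 members. Among the 544 strongest regions of a list, 28 WT FOXP3, 41 Treg Ku70 and 61 Tconv Ku70 members remained. Overlapping members numbered 51 with a reciprocal overlap of at least 50%, 76 with summits at most 500 bp apart and 26 with −log10 p of at least 2 in both lists, against 63. Multi-copy summits were 83.9% with 51 bases and 70.0% with 50 bases on each side of the summit base. The share of members at genes was 52.2% inside a gene, 82.1% within 10 kb and 31.4% for protein-coding genes alone, against 64.6%. Of all listed regions on assembled chromosomes, 57.3% lay inside or within 3 kb of a gene and 49.6% inside one. Members with a near copy numbered 149 at 80% identity over 50% of the region and 33 at 95% over 90%, against 68. At least 80% of bases were masked in 28.8% of members. The forkhead core lay anywhere in 12 members (3.46%, against 2.36% of all listed regions) rather than in 1. With 1 list per set, the lists' lengths and depths cannot be told apart from the conditions.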
